A study of Homo sapiens with 6 samples.

Results

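The genes described here are 10 early-response genes, EGR1, EGR2, EGR3, IER2, IER3, IER5, NR4A1, SRF, KLF10 and ZFP36, in MDA-MB-231 cells given the compound TCI04. They were chosen by name, with the TCI04 and PBS values of these arrays already known, so every difference between the groups is given as a description and no test rests on it. A probe set was taken where the platform annotation gave a listed gene as its only symbol. This gave values for 9 of the 10, out of 19775 genes named on the arrays, from 14 of 54613 probe sets other than controls. The expression of EGR2 was not analysed here.

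MDA-MB-231 is an established human triple-negative breast cancer cell line with a mesenchymal character. The cells, grown in DMEM with serum, were kept for 48 h with 50 µM TCI04, a compound given only under that name, or with PBS as the control. Each treatment has 3 arrays, and total RNA was measured on Affymetrix arrays as MAS5 signal, a linear intensity for each probe set. The labels do not tie the replicates to separate cultures, so the spread between arrays may be technical.

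Immediate-early genes are transcribed within minutes of a growth factor, serum or stress signal, without new protein synthesis, and most of their transcripts are short-lived. Many are switched on by serum response factor (SRF), which binds CArG boxes in promoters together with ERK-regulated ternary complex factors such as ELK1, or with actin-regulated MRTF coactivators. After a single pulse most return to a low level within hours.

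CArG boxes were searched for in the 250 bases before each annotated start, because the label that joins these genes is their link to SRF. RefSeq promoters on GRCh38.p14 were at hand for 7 of the 10 genes, 11 start sites in all. A full CArG box lay before a start of 3 genes, EGR1, SRF and EGR2, the last at 1 of its 3 start sites. Of all 35116 promoters of that length, 1.16% held a CArG box and 0.0313% held 2 or more. EGR1 had 2, from 105 to 96 and from 83 to 74 bases before the start, and SRF, whose product binds this motif, had 2, from 30 to 21 and from 10 to 1 bases before its upstream start. IER2, IER5, NR4A1 and ZFP36 had none in this window. The EGR binding site GCGTGGGCG, on either strand, was in 0 of the 11 member promoters and in 0.72% of all, and the cAMP response element TGACGTCA in 0 of 11 and in 1.65% of all. For both, only these exact letters were searched, so variant sites, such as tcacgtca in the EGR1 promoter below, were not counted. The EGR1 and SRF promoters are shown for their paired boxes and that of IER2 as one without, each 5′ to 3′ with CArG boxes in capitals. All 10 genes are protein-coding and lie on 7 chromosomes. EGR1 spans chr5:138465479-138469303, SRF chr6:43171269-43181506 and IER2 chr19:13150411-13154911, and IER3 also lies on chromosome 6 and ZFP36 on chromosome 19. The promoters shown lie at chr5:138465229-138465478, chr6:43171019-43171268 and chr19:13150161-13150410, all on the plus strand, and end 1 base before the start.
EGR1: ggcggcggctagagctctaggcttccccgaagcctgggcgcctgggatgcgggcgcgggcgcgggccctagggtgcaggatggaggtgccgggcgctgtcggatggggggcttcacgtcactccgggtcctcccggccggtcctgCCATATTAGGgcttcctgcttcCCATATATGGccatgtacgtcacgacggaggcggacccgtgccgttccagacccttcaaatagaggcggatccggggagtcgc
SRF: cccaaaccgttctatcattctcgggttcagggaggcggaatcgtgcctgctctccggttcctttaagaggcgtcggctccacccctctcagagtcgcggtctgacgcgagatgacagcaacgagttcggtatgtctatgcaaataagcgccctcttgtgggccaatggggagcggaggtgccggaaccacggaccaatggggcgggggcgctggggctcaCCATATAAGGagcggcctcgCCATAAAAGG
IER2: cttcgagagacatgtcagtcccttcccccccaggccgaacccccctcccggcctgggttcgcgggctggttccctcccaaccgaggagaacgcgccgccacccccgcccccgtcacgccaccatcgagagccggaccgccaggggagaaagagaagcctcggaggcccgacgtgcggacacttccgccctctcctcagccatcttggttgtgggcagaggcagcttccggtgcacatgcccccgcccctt

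Of the 14 probe sets, 11 from 8 genes were bright enough to be tested (a mean signal of at least 36.98). The other 3, that of EGR3 and 2 of the 3 for NR4A1, were below this level. In limma, 0 of the 11 passed an adjusted p of 0.05 (adjusted p from 0.698 to 0.998), where 1 of all 32768 tested probe sets did (0.00305%). At an unadjusted p under 0.05 there were 4 of 11, against 7.11% of all, and a test with each probe set's own variance in place of limma's moderated one called 0 after adjustment and gave 4 unadjusted, against 6.31% of all. IER2 was among the 4 of limma only, and ZFP36 among the 4 of that other test only. By mean, 6 of the 11 were lower and 5 higher with TCI04, with a median log2 difference of -0.0023 (all tested probe sets: -0.03, with 56.2% lower). The 11 count EGR1 3 times and SRF 2 times. By the brightest probe set of each gene, 3 of the 8 genes were lower and 5 higher (median 0.00998). Over all 13710 tested genes read in this way, 50.7% were lower (median -0.0026). Of the 8 genes, IER2 and KLF10 (2) had an unadjusted limma p under 0.05, against 7.12% of the 13710. These log2 values are of signal + 10.96, which makes the differences of dim probe sets smaller. All 3 TCI04 arrays lay below all 3 PBS arrays for 3 of the 11, 2 probe sets of EGR1 and the one of IER2 (8.22% of all tested). They lay above for 2, those of KLF10 and ZFP36 (5.34% of all). With each array centred on its median, those counts became 0 lower and 4 higher, while the share of all tested probe sets became 2.38% lower and 22.7% higher. That centring moved the median of all tested probe sets from -0.03 to 0.13, and moved each tested difference up by the same amount. After quantile normalization the members were 4 higher and 7 lower, with 17115 higher and 15652 lower over all; median centring gave 6 and 5, with 23368 and 9400.

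**Figure D1:**
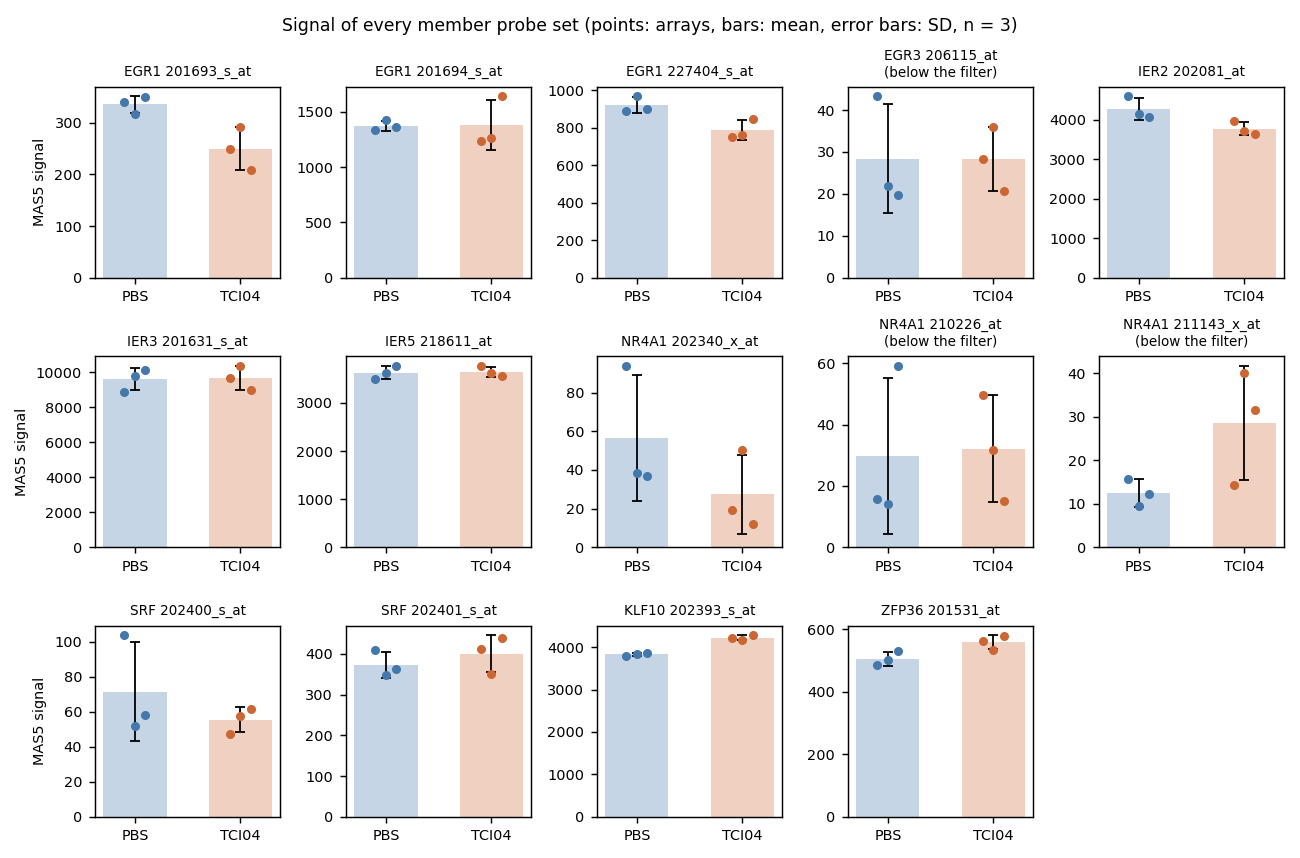
MAS5 signal (vertical axis, linear, from 0) of each of the 14 probe sets, with a point for each array, bars for group means and error bars for SD (n = 3). The groups do not overlap for EGR1 201693_s_at and 227404_s_at, IER2, KLF10 and ZFP36, and the dim probe sets of EGR3 and NR4A1 scatter widely.

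**Figure D2:**
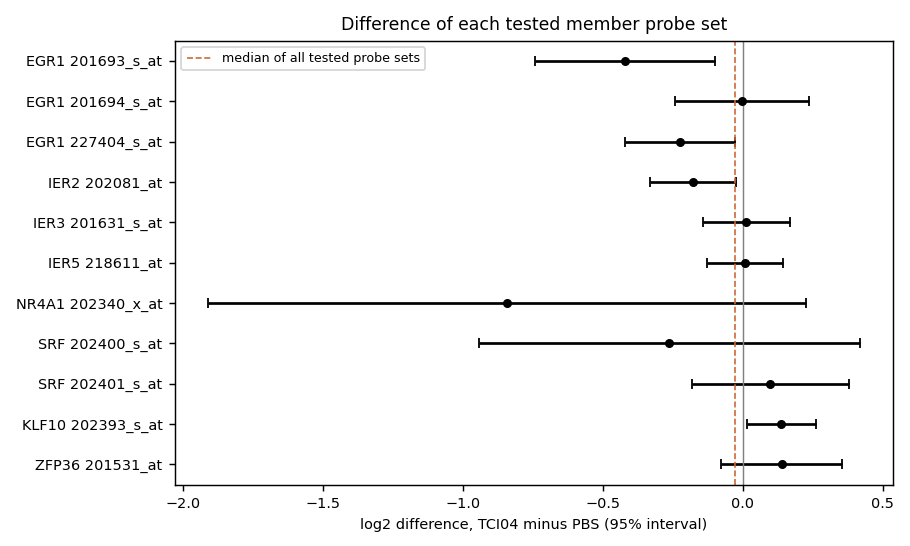
Log2 difference of TCI04 minus PBS (horizontal axis) with its 95% interval for the 11 tested probe sets, beside the median of all tested probe sets at -0.03 (dashed). NR4A1 and SRF 202400_s_at have the widest intervals, and IER3 and IER5 lie near 0.

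EGR1, a zinc finger transcription factor and a classic SRF target, was the member with the most probe sets above the filter, and its 3 probe sets differed from one another. Probe set 201693_s_at gave signals of 339, 317 and 349 with PBS and 248, 292 and 209 with TCI04. All 3 TCI04 arrays were below the lowest PBS array, with replicate 3 the lowest. The means were 335 ± 16.4 and 249.5 ± 41.4 (SD, n = 3 each), 1.34-fold lower with TCI04, a log2 difference of -0.42 with a 95% interval from -0.74 to -0.10.

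Probe set 227404_s_at, also for EGR1, gave 890.1, 969 and 901 with PBS and 749, 762 and 848 with TCI04. The groups again did not overlap, but here replicate 3 was the highest of the TCI04 arrays. The log2 difference was -0.22 (95% interval from -0.42 to -0.03), 1.17-fold lower. The third, 201694_s_at, gave 1333, 1426 and 1362 with PBS and 1238, 1265 and 1645 with TCI04. TCI04 replicates 1 and 2 were below all PBS arrays and replicate 3 was above them all. The log2 difference over all 3 was -0.0023 (95% interval from -0.24 to 0.24). Without TCI04 replicate 3 it was -0.13, and those of 201693_s_at and 227404_s_at were -0.31 and -0.28. All 3 EGR1 probe sets then had groups that did not overlap, as 13.5% of all tested probe sets did toward lower values with that array left out. With median centring the 3 differences were -0.26, 0.16 and -0.06 in the order of 201693_s_at, 201694_s_at and 227404_s_at.

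The EGR1 probe sets diverged most in 1 array. With PBS, the signal of 201694_s_at over that of 201693_s_at was 3.93, 4.49 and 3.90. With TCI04 it was 4.99 in replicate 1, 4.34 in replicate 2 and 7.88 in replicate 3. Over 227404_s_at it was 1.47 to 1.51 with PBS and 1.65, 1.66 and 1.94 with TCI04, higher in every TCI04 array. A ratio of 2 probe sets compares only how each moved, not their levels. The same array had a ratio of 3′ to 5′ ACTB control signal of 3.33, against 1.64 to 1.72 in the other 5, a measure that rises when the 5′ ends of transcripts are lost. The GAPDH ratio was 1.21 in that array and 0.973 to 1.08 in the others. The part of RNA quality in the EGR1 values was not tested. The suffix _s_at marks probes that can match more than 1 transcript, and where each probe set lies along the EGR1 transcript is not given in the files.

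**Figure D3:**
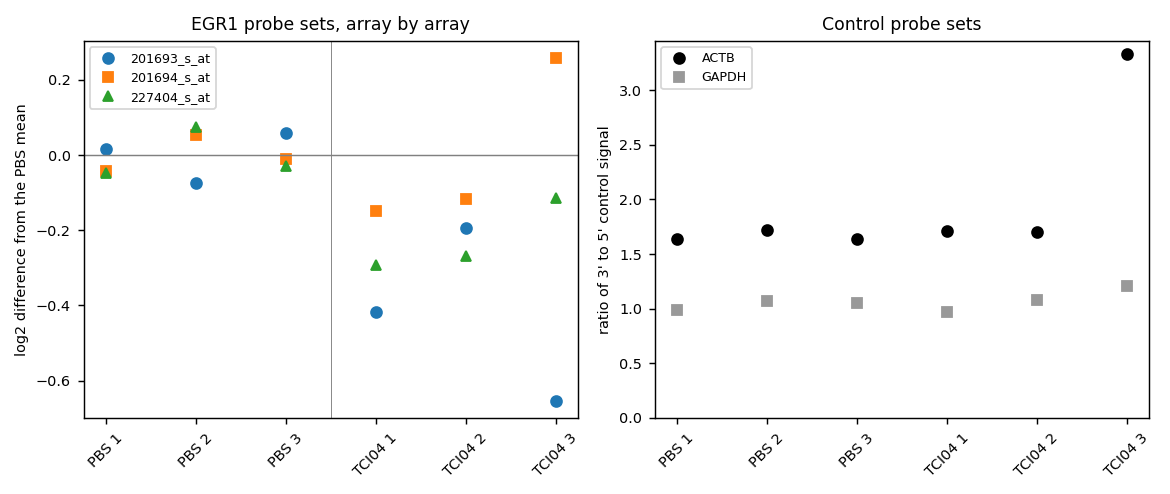
Left, log2 difference of each EGR1 probe set from its PBS mean (vertical axis) in the 6 arrays; right, the 3′ to 5′ signal ratio of the ACTB and GAPDH controls in the same arrays. In TCI04 replicate 3 the EGR1 probe sets run from -0.65 to 0.26 and the ACTB ratio is 3.33.

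EGR3, a close relative of EGR1 that is induced after it in many cells, was dim. Its probe set 206115_at gave 43.4, 21.9 and 19.8 with PBS and 28.4, 36.0 and 20.6 with TCI04. The groups overlapped throughout, and the means were 28.4 ± 13.0 and 28.3 ± 7.70 (SD, n = 3 each).

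NR4A1, an orphan nuclear receptor also known as NUR77, was near the limit of measurement as well. Its 1 tested probe set, 202340_x_at, gave 94.1, 38.5 and 36.8 with PBS and 19.4, 50.5 and 12.05 with TCI04. The arrays overlapped, and PBS replicate 1 stood above all others. The log2 difference was -0.84 with a 95% interval from -1.91 to 0.23, which spans a 3.77-fold lower to a 1.17-fold higher level. It was -0.47 without PBS replicate 1, -0.54 without TCI04 replicate 3, -0.39 with a larger offset (the table median of 63.58) and -1.12 with an offset of 1. The other NR4A1 probe sets went the other way by mean. For 210226_at the signals were 15.8, 14.2 and 59.3 with PBS and 49.7, 31.8 and 15.0 with TCI04, and for 211143_x_at 15.7, 9.37 and 12.2 against 14.2, 40.1 and 31.5. So the 3 probe sets give no common direction for NR4A1.

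KLF10, a zinc finger repressor first found as a TGF-beta-inducible early gene, was higher in every TCI04 array. Its probe set 202393_s_at gave 3797, 3842 and 3866 with PBS and 4205, 4172 and 4286 with TCI04. The nearest arrays of the groups, at 3866 and 4172, were further apart than the arrays within either group. The means were 3835 ± 34.9 and 4221 ± 58.6 (SD, n = 3 each), 1.10-fold higher, a log2 difference of 0.14 with a 95% interval from 0.013 to 0.26. It was 0.11 after quantile normalization and 0.30 with median centring, and its sign held in all 17 alternatives that measured it.

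IER2, IER3 and IER5 are immediate-early genes, of which IER2 and IER5 encode related proteins and IER3 an unrelated one. IER2, a nuclear protein linked to cell motility, had signals of 4602, 4134 and 4080.0 with PBS and 3965, 3721 and 3635 with TCI04. The 3 TCI04 arrays were below the 3 PBS arrays, with a gap between 3965 and 4080.0. The means were 4272 ± 287 and 3774 ± 171 (SD, n = 3 each), 1.13-fold lower, a log2 difference of -0.18 with a 95% interval from -0.33 to -0.02. Median centring took it to -0.02, with groups that overlapped. Set against the median of all tested probe sets, the difference was -0.15 as reported and -0.22 after quantile normalization; median centring leaves this relative value as it is by construction.

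IER3, a regulator of apoptosis also called IEX-1, gave 8904, 9781 and 10120.1 with PBS and 9698, 10388 and 8986 with TCI04. The groups covered the same range, and the log2 difference was 0.013 with a 95% interval from -0.14 to 0.17. IER5, a feedback regulator of the heat shock factor HSF1, gave 3504, 3614 and 3777 with PBS and 3764, 3623 and 3560.5 with TCI04. Its log2 difference was 0.0071 with a 95% interval from -0.13 to 0.14. Both signs turned when single arrays were left out, that of IER5 also after quantile normalization (-0.02), and both were 0.17 with median centring, past the upper ends of their intervals, where the median of all tested probe sets was 0.13.

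SRF, the factor that binds CArG boxes and activates its own gene, was measured by 2 tested probe sets. The brighter, 202401_s_at, gave 409, 347 and 362 with PBS and 412, 350.0 and 439.7 with TCI04. The groups overlapped, and the log2 difference was 0.10 with a 95% interval from -0.18 to 0.38. It was 0.16 without PBS replicate 1, 0.050 without PBS replicate 2, 0.19 without TCI04 replicate 2 and 0.03 without TCI04 replicate 3, and 0.26 with median centring. The dimmer, 202400_s_at, gave 104, 52.0 and 58.3 with PBS and 47.4, 57.6 and 61.6 with TCI04, a log2 difference of -0.26 (95% interval from -0.94 to 0.42). The lower mean rested on PBS replicate 1: without that array the difference was 0.0033, and it was -0.10 under both other scalings. It was also -0.43 without PBS replicate 2 and -0.17 without TCI04 replicate 1. PBS replicate 1 was the highest array for 3 of the 5 dim probe sets, SRF 202400_s_at, EGR3 206115_at and NR4A1 202340_x_at, but not for NR4A1 210226_at and 211143_x_at. Its median signal over all probe sets was 74.3, against 64.0 and 64.8 in PBS replicates 2 and 3. With TCI04 the medians were 58.9, 59.4 and 59.8, below those of every PBS array. The part of that array's scaling was not tested.

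ZFP36, or tristetraprolin, is an RNA-binding protein that speeds the decay of AU-rich mRNAs, many of them from early genes. Its probe set 201531_at gave 486, 502 and 530.4 with PBS and 561, 534 and 580.0 with TCI04. All TCI04 arrays were above the PBS arrays, but the gap from 530.4 to 534 was smaller than the spread in either group. The means were 506 ± 22.4 and 558 ± 23.1 (SD, n = 3 each), a log2 difference of 0.14 with a 95% interval from -0.08 to 0.35, and 0.17 after quantile normalization and 0.30 with median centring.

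These intervals cover the spread between arrays and not the choice of scaling: with median centring, IER2, IER3, IER5 and KLF10 lay outside their own. For 8 of the 11 probe sets the whole 95% interval lay within 1.5-fold to each side; those of EGR1 201693_s_at, NR4A1 and SRF 202400_s_at reached further. The share of all tested probe sets with such an interval was not counted. Half-widths had a median of 0.22 on the log2 scale, against 0.37 over all tested probe sets. Spread fell with signal in general. The median within-group SD was 0.49 in the dimmest of 10 equal classes of mean signal and 0.077 in the brightest.

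**Figure D4:**
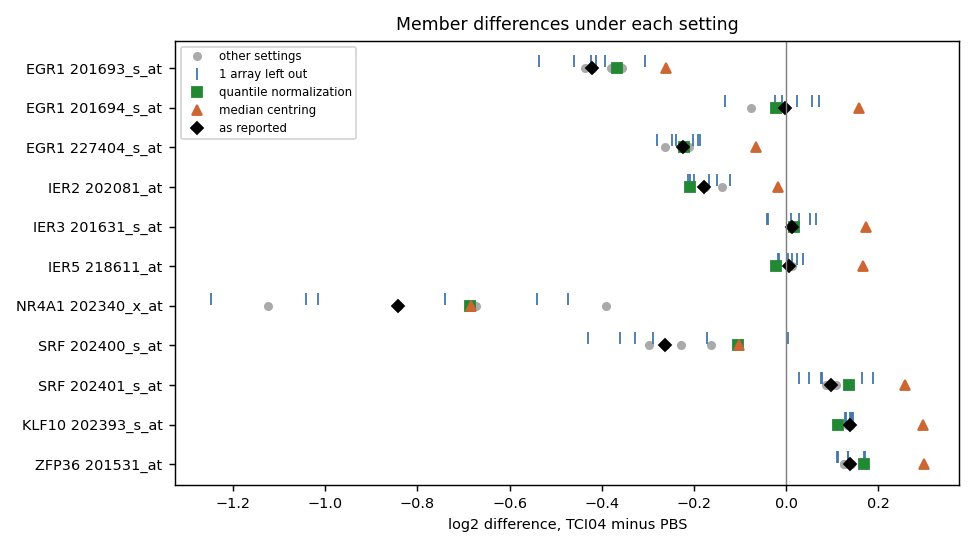
Log2 difference of each tested probe set (horizontal axis) as reported, under 2 other scalings, with 1 array left out and under the remaining settings. Median centring shifts each one upward, and the sign of EGR1 201693_s_at and 227404_s_at, IER2, NR4A1, SRF 202401_s_at, KLF10 and ZFP36 is the same throughout.

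Genes around SRF were read from lists, each gene by its brightest probe set. Over all 13710 genes so represented the median log2 difference was -0.0026, with 50.7% lower (0.015 and 45.5% after quantile normalization, 0.16 and 22.3% with median centring). Of the SRF cofactors and EGR corepressors, 7 of 8 genes were tested, 5 with a higher and 2 with a lower mean (median 0.03), and 0 passed in limma, 1 at an unadjusted p under 0.05. Of all 13710 genes, 7.12% had an unadjusted p under 0.05, the share to set beside this count and those of the lists that follow. The ternary complex factor ELK1 was that 1, with 726 ± 17.8 with PBS and 595 ± 27.3 with TCI04 (SD, n = 3), a log2 difference of -0.28, which was -0.27 after quantile normalization and -0.12 with median centring; its other tested probe set gave -0.17. Its relatives ELK3 and ELK4 had 0.07 and 0.12, and the other tested probe set of ELK3 gave 0.04 and those of ELK4 ran from -0.36 to 0.20. The actin-regulated coactivators MRTFA and MRTFB had -0.25 and 0.06, and the other tested probe sets gave 0.17 for MRTFA and -0.0011 for MRTFB. The corepressors NAB1 and NAB2, which bind EGR1, had 0.03 and 0.0077, and other probe sets of NAB1 ran from -0.92 to 0.09. MYOCD, the muscle coactivator, was below the filter.

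Among 20 tested other immediate-early genes, 9 had a lower and 11 a higher mean (median 0.0039, and -0.016 after quantile normalization), and 6 had an unadjusted p under 0.05. FOS, which shares SRF control with EGR1, was the 1 that passed, at 1086, 1186 and 1183 with PBS and 471, 506 and 559.6 with TCI04, a log2 difference of -1.15 (limma, adjusted p = 0.00605). The difference was -1.14 after quantile normalization, -0.995 with median centring and between -1.22 and -1.10 with any single array left out, a choice made after seeing the data. The call itself was lost with median centring, without a variance trend, with each probe set's own variance and without PBS replicate 1, 2 or 3 or TCI04 replicate 1 or 2. FOSB, named after its value was seen, had -1.80 and did not pass. It was dim, at 84.3, 111 and 62.9 with PBS and 6.58, 29.1 and 18.2 with TCI04. Those TCI04 signals lie under the filter level of 36.98, where the added constant weighs on a log2 difference. PHLDA1 and MCL1, the brightest of the list, had 0.02 and -0.06, the latter 0.10 with median centring, and their other tested probe sets ran from -0.62 to 0.16 and from -0.46 to 0.03. Of 10 tested close relatives of the members, 3 had a lower and 7 a higher mean, with KLF6 at 0.0058 (-0.0081 after quantile normalization) and ZFP36L1 at 0.17 as the brightest, and 0 passed in limma (1 unadjusted). The other tested probe sets ran from -0.43 to -0.05 for KLF6 and from -0.72 to 0.12 for ZFP36L1.

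MRTF and SRF also drive cytoskeletal and matricellular genes. Of 17 tested here, 13 had a lower and 4 a higher mean, with a median of -0.10; the median was -0.07 with 11 lower after quantile normalization, and 0.06 with 7 lower after median centring. None passed in limma, and 2 had an unadjusted p under 0.05. Some of these means lean on TCI04 replicate 3, the array with the ACTB control ratio of 3.33. It was the lowest of all arrays for MYL9 (386, 394 and 196 with TCI04) and ANKRD1 (1757, 1761 and 1302). For ACTA2 (144, 67.7 and 166) and TPM2 (205, 222 and 257) it was the highest. The list was not analysed without that array. The brightest were ACTB and CCN1. ACTB, a cytoplasmic actin, had -0.21, which was -0.08 after quantile normalization and -0.05 with median centring, and its other tested probe sets gave -0.12 and -0.10. The matricellular CCN1 had -0.08, which turned to 0.04 and 0.08 under those scalings, and its other tested probe set gave -0.04. Of 8 tested mRNAs known as ZFP36 targets, 2 had a lower and 6 a higher mean (median 0.21). The median was 0.25 with 6 higher after quantile normalization, and 0.37 with 8 higher after median centring. None of the 8 passed, and 1 had an unadjusted p under 0.05. Apart from PLAU and VEGFA, the tested genes had mean signals from 51.5 (CXCL3) to 265 (CXCL8), and their groups overlapped. PLAU, which encodes urokinase, had 0.02, with its other tested probe set at -0.31, and VEGFA had 0.24, with other probe sets of VEGFA from -0.45 to 0.06.

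**Figure D5:**
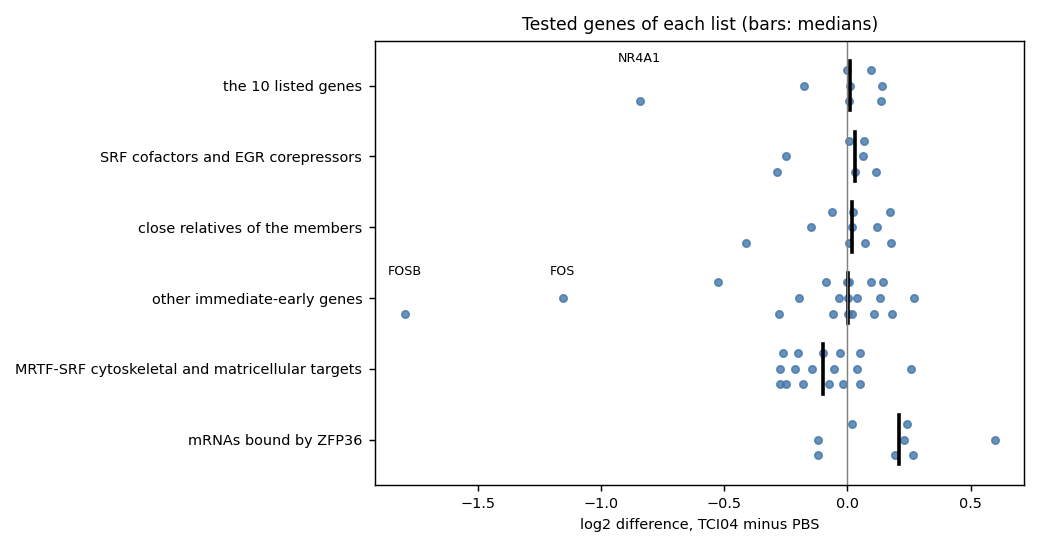
Log2 difference (horizontal axis) of the tested genes of each list, a point for each gene by its brightest probe set and a bar for the list median. The medians of the 10 listed genes and the other immediate-early genes lie near 0, and FOS and FOSB stand to the left of the rest.

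The identity of the cells was checked by markers. All 8 mesenchymal markers, VIM and CAV1 the brightest, were above the filter, with a summed signal of 97612 to 103342 with PBS and 98512 to 99320 with TCI04. Of 7 luminal markers, PGR and TFF1 were below the filter and 5 above it, KRT19 and GATA3 the brightest (summed signal 2889 to 3391 and 2112 to 3187). ESR1, among the 5, was barely above the filter of 36.98. The brightest of its 9 probe sets had a mean signal of 39.6, with arrays from 18.5 to 94.3. Of leukocyte and endothelial markers 2 of 6 and 1 of 4 genes were above the filter, with PTPRC, CD14, CDH5, VWF and KDR below it. The summed signals were 136 to 249.98 and 113 to 195 for leukocytes and 277 to 284 and 211 to 251 for endothelium. The endothelial sum, mostly PECAM1, was lower in every TCI04 array. It used 1 PECAM1 probe set, with a log2 difference of -0.21, and the other 2 tested for PECAM1 gave -0.51 and 0.51. Of the single markers named after their values were seen, the leukocyte integrin ITGAM was at 77.1, 76.5 and 82.8 with PBS and 39.5, 33.6 and 38.9 with TCI04, a log2 difference of -0.90, and the mesenchymal FN1 had -0.27, both with groups that did not overlap and neither past the adjusted threshold. The other tested probe sets of FN1 ran from -0.44 to 0.015. The part of these markers in the values above was not tested.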

How the data were processed

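RNA from MDA-MB-231 cells (3 PBS and 3 TCI04 arrays) was measured on Affymetrix arrays, and the deposited table gives intensity on a linear scale for each probe set. The authors made these intensity values with MAS5, per the submitters' processing notes; its version is not given in the sources used here. After trimming 2% at each end, every array had a mean of 500.07, a per-array scaling done before deposit. Genes were named from GEO's platform annotation, and promoters came from RefSeq (GRCh38.p14).

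A constant of 10.96, the table's 20th percentile, was added to each signal before log2 was taken. Control probe sets were dropped, as were those whose mean signal was under the 40th percentile, and 32768 were tested. A two-sided linear model (limma 3.58.1, R 4.3.3, lmFit, eBayes with trend) compared the groups, with Benjamini-Hochberg adjustment over all tested probe sets. The steps were tested on simulated data. Replicates are not tied to separate cultures, so p-values measure only the spread between these arrays. The members, lists and the rule for named genes (every member probe set; in each list the genes that passed and the 2 brightest; all SRF cofactors and EGR corepressors) were chosen with earlier results of these data known. Older gene symbols, which the plan had included, were dropped after they assigned probe sets of other genes to EGR1. Alternatives covered scaling, offset, filter, variance model, array weights and single arrays left out.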

Additional observations from a re-analysis of the deposited data

How the results depend on the processing

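Member probe sets past the adjusted threshold stayed at 0 in all 18 alternatives, with a smallest adjusted p of 0.281 (limma). Of 11 member differences, 4 turned sign under at least 1 alternative (10 of 188 values) and 7 under none, and 8 of the 188 moved by at least the within-group SD. Non-overlapping member probe sets were 5 as reported, 5 after quantile normalization (5.77% of all tested probe sets lower and 7.14% higher), 4 with median centring (2.38% and 22.7%) and 6 without TCI04 replicate 3 (13.5% and 8.62%), settings chosen for this count after seeing the data. Over all tested probe sets, the 1 call became 0 with median centring, eBayes without trend and with each probe set's own variance, and was 0 to 1 with single arrays left out (1 only without TCI04 replicate 3). The 4443 non-overlapping probe sets became 8201 with median centring, 6969 with no filter and 2816 without _x_at and _s_at probe sets. The latter settings test more and fewer probe sets. Median centring moved every tested difference up by the same amount. With it, non-overlapping probe sets went from 5.34% to 22.7% higher and from 8.22% to 2.38% lower. With the replicate number as a replicate block, 1 probe set and 0 members passed. Deviations of same-numbered arrays correlated at 0.0074, 0.068 and 0.055, and those of differently numbered arrays at -0.063 to 0.0062. The same-numbered values were the highest, but all were small, and the numbers were not taken as pairs. The number of arrays limits precision, and for EGR3 and 2 NR4A1 probe sets the dim signal does.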

Other observations

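KLF10 varied little between arrays of a group. Its within-group SD was 0.017 on the log2 scale, smaller than in all but 0.0702% of tested probe sets and all but 0.305% of the probe sets nearest to it in signal (10 equal classes of mean signal), where the median SD was 0.077. Fitted with that SD alone, KLF10 had an unadjusted p of 0.00056, and in limma, which draws the SD toward that of other probe sets, an unadjusted p of 0.033 (adjusted p 0.698); since KLF10 was chosen with these values known, both are descriptions. IER3, in the same class of signal, had an SD of 0.10, larger than 74.4% of it, and IER2 had 0.081, larger than 55.4%. Of the EGR1 probe sets, 201694_s_at had an SD of 0.16, larger than 78.3% of its class, and 227404_s_at 0.082, larger than 27.3%.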
